A study of Saccharomyces cerevisiae with 14 samples.

Results

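The genes described here are 46 meiosis and sporulation genes of budding yeast, taken from a list of symbols. That list was chosen with earlier results of these data known. The genes are of 2 classes. They comprise 21 early meiotic genes, which serve the entry into meiosis and the pairing and recombination of chromosomes, and 25 middle-late sporulation genes, which build the membranes and wall of the spore. All 46 have a probe set annotated to them alone, of 5656 genes with such a probe set in the series, and the probe set with the highest mean signal stands for each gene. The arrays hold total RNA of 4 yeast strains in which the histone genes in question were carried on a plasmid. H3del had histone H3 without residues 1 to 28 (4 arrays) and H3WT was its full-length partner (4 arrays), both with a LEU2-marked plasmid and grown without leucine and uracil. H4del had histone H4 without residues 2 to 26 (3 arrays) and H4WT was its full-length partner (3 arrays), both with a TRP1-marked plasmid and grown without tryptophan and uracil. All cultures were in mid-log growth in synthetic complete medium, and the series describes the strains as congenic. Nothing in the labels states mating type, ploidy or that replicate arrays stand for independent cultures, and the p-values therefore reflect only array-to-array spread, part of which may be technical.

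Meiosis in this yeast starts when starved diploid cells that carry both mating types switch on IME1, the activator of the early meiotic genes. NDT80 then drives the middle genes, with which meiotic division and spore formation begin. In dividing cells both sets are kept off, the early genes by the DNA-binding protein Ume6 with the Sin3-Rpd3 histone deacetylase, and many middle genes by Sum1 with the deacetylase Hst1. In haploid cells Rme1 holds IME1 down, and in diploids the a1-alpha2 repressor turns RME1 off together with other haploid-specific genes.

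The values are MAS5 signals, an intensity on a linear scale whose trimmed mean was nearly the same on every array. The mean signal of the members over all 14 arrays lay between 8.49 and 1660, with a median of 133, against a median of 495 over all 9275 probe sets. Of the 46 members 23 had a mean log2 signal in the lowest 30% of all probe sets, and 3 averaged below 16.9, the 10th percentile of all signals. That value served as an offset on the signals under the log2, so that log2 fold changes understate the change of the dimmest members. A higher signal from a whole culture does not show whether every cell held slightly more of a transcript or a few cells held much of it. The Spearman correlation between arrays of a group was at least 0.9676, and the arrays were hybridized on 5 days. Day 4 held replicate 3 of every group and day 5 replicate 4 of both H3 groups, so values within those days compare single arrays. Day 2 held H4WT replicate 1 with H4del replicates 1 and 2. Within-day values below reuse the arrays of the main fit, have no SE and are not separate repeats. The ratio of the actin 3 prime to 5 prime control signals, which reflects RNA quality, was 1.54 to 2.89 in H3del, 1.56 to 2.15 in H3WT, 1.54 to 1.99 in H4del and 1.48 to 1.82 in H4WT. In 3 of the 4 H3del arrays it was above that of every H3WT array, at 2.61 to 2.89 against at most 2.15, and on day 4 it was 1.54 in H3del and 1.56 in H3WT. On that day the median change of the middle-late genes in H3del was 0.88 and that of the early genes 0.41. Its part in the results was not tested.

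In H3del against H3WT 12 of the 25 middle-late genes rose and none fell, and 5 of the 21 early genes rose and none fell, at a Benjamini-Hochberg adjusted p under 0.05 in limma. Over all 9275 probe sets 5.66% rose and 1.78% fell in this comparison. The median log2 fold change was 0.88 over the middle-late genes and 0.47 over the early genes, against 0.06 over all probe sets. In 21 of the 25 middle-late and 19 of the 21 early genes the value lay above 0, as did 56.8% of all probe sets. The H3del arrays lay wholly above the H3WT arrays in 13 middle-late and 7 early genes, and wholly below in 1 middle-late gene, as did 8.88% and 5.13% of all probe sets. Of the 23 members in the dimmest 30% of probe sets 10 rose and of the 23 brighter ones 7 rose, where 7.08% of dim and 5.05% of brighter probe sets rose.

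**Figure D1:**
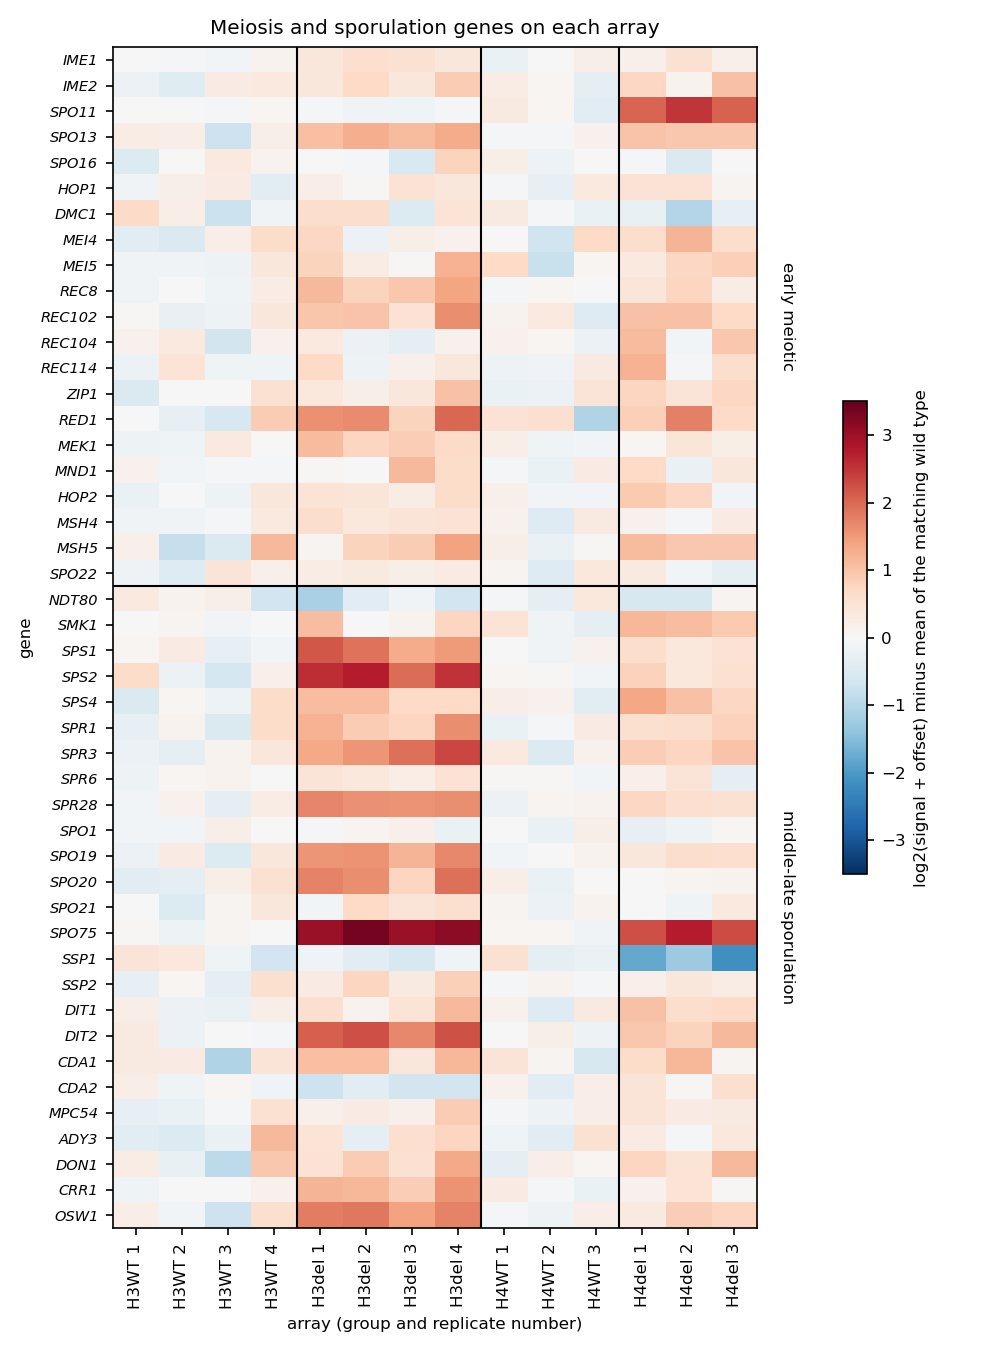
Each row is 1 of the 46 genes and each column 1 of the 14 arrays, and colour gives log2(signal + 16.9) minus the mean of the matching wild type (H3WT for H3 arrays, H4WT for H4 arrays). SPO75, SPS2, SPS1, DIT2, SPR3 and SPR28 are red on all 4 H3del arrays, SPO75 and SPO11 on all 3 H4del arrays, and SSP1 is blue on all 3 H4del arrays.

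The largest rise among the members was in SPO75 (YLL005C), a membrane protein needed for spore wall formation. Its signals were 45.1, 36.0, 47.5 and 43.9 on the H3WT arrays and 465.7, 597.9, 473.1 and 508.4 on the H3del arrays, with no overlap. The log2 fold change was 3.13 ± 0.18 (SE, adjusted p = 7.16e-08), and it was 3.25, 2.93 and 3.11 within the 3 hybridization days that held both groups. On either side of SPO75, MMM1 had a log2 fold change of 0.07 (adjusted p = 0.919) and ORC3 of -0.02 (adjusted p = 0.985), and neither passed.

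SPS2 (YDR522C), a cell wall protein of the spore, and SPS1 (YDR523C), a protein kinase needed for spore wall assembly, lie next to each other and both rose in H3del. SPS2 had signals of 60.1, 26.4, 15.5 and 39.5 in H3WT and 278.3, 318.6, 176.6 and 272.4 in H3del, a log2 fold change of 2.46 ± 0.26 (adjusted p = 2.6e-05). SPS1 had 100.4, 119.8, 73.4 and 87.9 in H3WT and 482.8, 400.5, 254.0 and 292.7 in H3del, a log2 fold change of 1.71 ± 0.21 (adjusted p = 0.000128). For both genes each H3del array lay above each H3WT array, and day 4, which held replicate 3, gave the lowest H3del signal. On the outer sides of this pair URC2, next to SPS2, also rose (log2 fold change 0.89, adjusted p = 0.00473), and AGE1, next to SPS1, fell (-0.84, adjusted p = 0.0322). Of the 30 measured neighbours of the 17 members that rose, themselves not among the 17, URC2 and PEX9 rose, AGE1 fell, and the median log2 fold change was 0.07.

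Genes of the spore wall and of its outer dityrosine layer differed among themselves. DIT2, a cytochrome P450 that makes dityrosine, had signals of 12.3, 3.5, 6.7 and 5.5 in H3WT and 83.8, 95.2, 59.6 and 93.2 in H3del. Its log2 fold change was 2.06 ± 0.19 (adjusted p = 6.74e-06), and all of its H3WT signals lay below the added 16.9, so the value understates the ratio. DIT1, the partner enzyme transcribed from the other strand beside it, had 0.58 ± 0.25 and missed the threshold (adjusted p = 0.206). OSW1, needed for the outer spore wall, rose with signals between 101.2 and 142.7 in H3del against at most 48.9 in H3WT (1.70 ± 0.25, adjusted p = 0.000556). CRR1, a putative glycosidase of the spore wall, rose by 1.20 ± 0.20 (adjusted p = 0.00128), and SPR1, a sporulation glucanase, rose by 1.13 ± 0.26 (adjusted p = 0.0147).

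The chitin deacetylases CDA1 and CDA2, which turn chitin into the chitosan of the spore wall, gave no call by the rule of the brightest probe set. CDA1 had a log2 fold change of 0.91 ± 0.35 (adjusted p = 0.149, and 0.0135 with the replicate number as a block). The brightest CDA2 probe set had -0.60 ± 0.19 (adjusted p = 0.0740, and 0.0237 with that block), with signals of 408.5 to 516.1 in H3del and 615.7 to 808.8 in H3WT. Another CDA2 probe set gave the opposite sign, with signals of 104.7 to 164.3 in H3del against 4.6 to 17.1 in H3WT and a log2 fold change of 2.57 ± 0.21 (adjusted p = 3.39e-06). The third was near background, at a mean signal of 9.13. The direction of CDA2 in H3del therefore depends on the probe set, and no direction is given for the gene. The brightest and the third are of the kinds of Affymetrix set that were designed with fewer or shared probes, whereas the one that rose is of the standard kind. That standard set also rose in H4del (1.00 ± 0.25, adjusted p = 0.0146), where the brightest had 0.35 ± 0.22 (adjusted p = 0.310). In H3WT against H4WT the standard set was lower (-1.40 ± 0.23, adjusted p = 0.00305), and the brightest had 0.56 ± 0.21 (adjusted p = 0.195).

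The sporulation septins SPR28 and SPR3, filament proteins that line the growing spore membrane, rose in H3del and had log2 fold changes of 1.62 ± 0.18 (adjusted p = 4.03e-05) and 1.79 ± 0.26 (adjusted p = 0.000423). SPR28 signals were 53.1, 65.4, 42.8 and 71.8 in H3WT and 224.0, 207.2, 205.8 and 210.6 in H3del, and SPR3 signals were 39.8 to 77.3 against 160.9 to 343.8. SPO20, the meiotic SNAP-25 type fusion protein, rose by 1.51 ± 0.27 (adjusted p = 0.00224). Its within-day values were 2.05, 0.56 and 1.40, so replicate 3 gave the smallest change. SPO19, a membrane-anchored protein of the forming spore, rose by 1.50 ± 0.21 (adjusted p = 0.000349). SPS4, a sporulation gene of unknown role, rose by 0.88 ± 0.25, just inside the threshold (adjusted p = 0.0456). Its within-day change was 1.29, 0.88 and 0.07, and the call was lost when any 1 array of either H3 group was left out except H3WT replicate 4.

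Other genes with a part in the spore membrane did not pass. The spindle pole body plaque genes SPO21 and MPC54 had 0.40 ± 0.23 and 0.39 ± 0.23, and the leading-edge genes ADY3 and SSP1 had 0.37 ± 0.35 and -0.31 ± 0.28 (adjusted p between 0.391 and 0.649). DON1, also of the leading edge, had 0.81 ± 0.33 (adjusted p = 0.187, and 0.0413 with the replicate number as a block). SPO1, a phospholipase-like gene, had 0.00 ± 0.18, and SPR6, the brightest member, had 0.39 ± 0.16 (adjusted p = 0.196). SSP2, which acts with the kinase Smk1, had 0.54 ± 0.22 (adjusted p = 0.185). Both SPO1 and SSP1 thus lay at or below 0 among genes whose class median was 0.88.

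Of the regulators of the programme IME1, IME2, NDT80 and SMK1 did not pass in H3del. IME1 had signals of 144.0, 137.8, 133.9 and 157.7 in H3WT and 191.9, 224.3, 212.5 and 191.8 in H3del, without overlap, and a log2 fold change of 0.47 ± 0.17 that missed the threshold (adjusted p = 0.130). IME2, the kinase that acts with Ime1 on early and middle genes, had 74.1 to 137.6 against 142.0 to 207.0, a log2 fold change of 0.59 ± 0.25 (adjusted p = 0.204). NDT80 was at 112.6 to 245.7 in H3WT and 77.0 to 170.6 in H3del, a value of -0.58 ± 0.28 (adjusted p = 0.278), below 0 while 12 of the middle-late genes rose. SMK1, the kinase of spore wall assembly, had 16.3 to 21.5 in H3WT and 58.8, 19.5, 21.9 and 43.2 in H3del (0.49 ± 0.24, adjusted p = 0.295), with overlapping groups.

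Of the early genes that rose in H3del, RED1 and MEK1 belong to the chromosome axis, REC8 is the meiotic cohesin subunit, SPO13 protects cohesion in the first division and REC102 is a subunit of the break-forming machinery. SPO13 had signals of 34.6, 33.9, 9.1 and 32.9 in H3WT and 72.4, 86.4, 75.1 and 88.2 in H3del (1.18 ± 0.22, adjusted p = 0.00263). REC8 had 48.5, 55.5, 47.4 and 69.6 against 140.5, 106.5, 121.9 and 171.1 (1.07 ± 0.19, adjusted p = 0.00236). REC102 had 37.4 to 68.0 against 74.4 to 181.3 (1.02 ± 0.25, adjusted p = 0.0222). In these genes no H3del array was as low as any H3WT array. RED1 changed most, at 1.51 ± 0.41 (adjusted p = 0.0334), but its groups overlapped, at 164.1 to 471.2 in H3WT against 436.4 to 1051.2 in H3del. MEK1 rose by 0.85 ± 0.18 (adjusted p = 0.00825) from signals below the added 16.9 to 21.9 to 35.6.

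The other 16 early genes gave no call, and 9 of all 21 had an unadjusted p under 0.05. The remaining break-machinery genes SPO11, MEI4, REC104 and REC114 had values between -0.10 and 0.26. The strand-exchange genes DMC1, MEI5, HOP2 and MND1 had 0.30 to 0.58, and the crossover and synapsis genes ZIP1, MSH4, MSH5, SPO16 and SPO22 had 0.05 to 0.79. HOP1 of the chromosome axis had 0.30 ± 0.21 (adjusted p = 0.521). The second DMC1 probe set gave 0.30 ± 0.25, as the first did. The second MEI4 set had a mean signal of 1.05.

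Within the 3 days that held both groups the middle-late median was 0.75, 0.88 and 0.76 and the early median 0.60, 0.41 and 0.54, with the median of all probe sets at 0.03 to 0.06. The number of early genes that rose was 3 in place of 5 without H3del replicate 1, 2 or 4 or H3WT replicate 1, 2 or 3, and 0 without the 4 arrays of day 1 (replicates 1 and 2 of both groups). The middle-late number was then 6 in place of 12. Neither the numbers without 1 array nor those without day 1 are set against the share of all probe sets in the same fit. Without day 1 the log2 fold change was 1.45 for SPO13, 1.12 for REC8, 0.96 for REC102, 1.23 for RED1 and 0.59 for MEK1, from 4 of the 8 H3 arrays. The calls of SPS1, SPS2, SPR3, SPR28, SPO75 and DIT2 held in every alternative in which the gene was tested. With the replicate number as a block 14 middle-late genes rose, with CDA1 and DON1 added, and the brightest CDA2 probe set fell, while over all probe sets 8.71% rose and 4.20% fell in that fit.

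**Figure D2:**
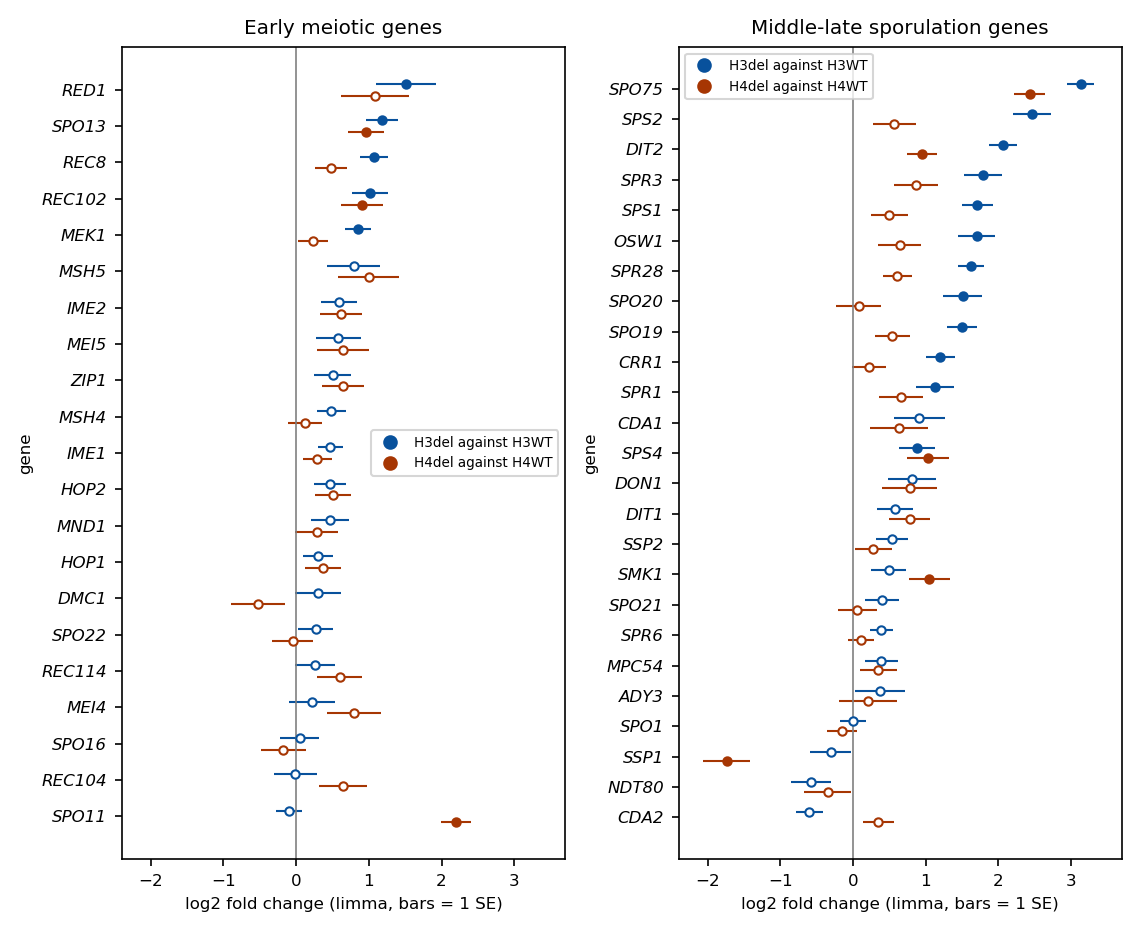
Points give the log2 fold change of each gene in H3del (blue) and H4del (brown) against its own wild type with 1 SE of limma, early genes on the left and middle-late genes on the right, ordered by the H3del value. Filled points passed an adjusted p of 0.05. In H3del 12 middle-late points are filled, and in H4del the filled points include SPO11 at 2.20 and SSP1 at -1.74.

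In H4del against H4WT fewer members were called. Of the 25 middle-late genes 4 rose and 1 fell, and of the 21 early genes 3 rose and none fell, whereas 8.87% of all probe sets rose and 6.73% fell. The share of members that rose, 16.0% of the middle-late and 14.3% of the early genes, was thus near that of all probe sets, and among the dimmest 30% of probe sets 12.4% rose. The median log2 fold change was 0.54 over the middle-late and 0.60 over the early genes, against 0.05 over all probe sets, and 22 and 18 of the values lay above 0, as did 53.9% of all probe sets. Quantile normalization gave medians of 0.30 and 0.26, with 17 and 16 values above 0. The H4del arrays lay wholly above the H4WT arrays in 15 of the 25 middle-late and 7 of the 21 early genes, as did those of 17.6% of all probe sets. They lay wholly below in 1 gene of each class, as did those of 14.1% of all probe sets. The early one was DMC1 (-0.53 ± 0.37, adjusted p = 0.358), whose second probe set had 0.61 ± 0.29 (adjusted p = 0.174). With the replicate number as a block the calls were 7 higher and 1 lower of 25 and 5 higher of 21, while 14.4% of all probe sets rose. The genes added were SPR1 (adjusted p = 0.0378), SPR3 (0.0123), DIT1 (0.0250), RED1 (0.0119) and MSH5 (0.0354).

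SPO11, the enzyme that cuts DNA to start meiotic recombination, rose most among the early genes. Its signals were 73.2, 59.2 and 39.7 in H4WT and 284.8, 394.5 and 287.0 in H4del, a log2 fold change of 2.20 ± 0.21 (adjusted p = 2.02e-05) and of 1.97 and 2.42 within the 2 days that held both groups. In the H3 strains the same probe set was at 263.1, 270.1, 250.8 and 276.7 in H3WT and 255.0, 239.6, 238.9 and 252.0 in H3del, a change of -0.10 ± 0.18 (adjusted p = 0.844). SPO11 was thus low only on the 3 H4WT arrays, and the other 11 arrays lay between 238.9 and 394.5. Its neighbours NPR3 and AIM17 had H4del values of -0.67 (adjusted p = 0.0585) and 0.85 (adjusted p = 0.558).

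SPO75 rose in H4del too, from 90.6, 91.2 and 78.1 to 477.7, 683.1 and 484.8 (2.43 ± 0.21, adjusted p = 4.57e-06). Here its neighbour MMM1 fell (-0.80, adjusted p = 0.0443). DIT2 rose from 18.6, 24.3 and 15.1 to 52.4, 44.8 and 62.1 (0.95 ± 0.21, adjusted p = 0.00929). SPS4 rose from 121.8, 114.0 and 75.5 to 286.8, 223.8 and 180.2 (1.03 ± 0.29, adjusted p = 0.0271), and SMK1 from 91.3, 54.3 and 44.4 to 158.0, 147.5 and 129.1 (1.05 ± 0.28, adjusted p = 0.0224). In these 4 genes no array of H4del was as low as any array of H4WT. Among the early genes SPO13 rose from 44.2, 43.7 and 54.1 to 110.8, 107.1 and 106.3 (0.96 ± 0.25, adjusted p = 0.0182). REC102 rose from 93.1, 110.8 and 57.5 to 188.7, 190.6 and 146.5 (0.91 ± 0.29, adjusted p = 0.0480). The REC102 call was lost whichever 1 of the 6 H4 arrays was left out (adjusted p between 0.0567 and 0.139).

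SSP1, a leading-edge protein that guides the growing spore membrane, was the only member that fell. Its signals were 507.2, 278.3 and 296.1 in H4WT and 88.7, 133.2 and 65.1 in H4del, a log2 fold change of -1.74 ± 0.32 (adjusted p = 0.00309) and of -2.06 and -1.93 within days. The other leading-edge genes ADY3 and DON1 had 0.20 ± 0.40 and 0.78 ± 0.38 (adjusted p = 0.784 and 0.186). With day as a block DON1 passed in H4del (0.98 ± 0.26, adjusted p = 0.0179), and so did RED1, SPR1, SPR3 and SPR28. In that fit 11.7% of all probe sets rose, against 8.87% in the main fit.

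IME1 was at 112.3, 136.2 and 156.1 in H4WT and 153.1, 199.2 and 153.6 in H4del, with overlap (0.29 ± 0.20, adjusted p = 0.350). IME2 had 0.62 ± 0.29 (adjusted p = 0.161), NDT80 -0.35 ± 0.32 (adjusted p = 0.515) and SPS1 0.50 ± 0.25 (adjusted p = 0.193). None of these 4 regulators passed in either deletion except SPS1 in H3del. Within days the H4del median was 0.47 and 0.38 over the middle-late genes and 0.57 and 0.27 over the early genes. The early call fell from 3 genes to 1, SPO11, without H4WT replicate 1 or 2 or H4del replicate 1. The middle-late call fell from 4 higher and 1 lower to 2 higher and 1 lower without H4WT replicate 2 or 3 or H4del replicate 1 or 2. For these fits the share of all probe sets is not given. The calls of SPO11, SPO75 and SSP1 held in every alternative.

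**Figure D3:**
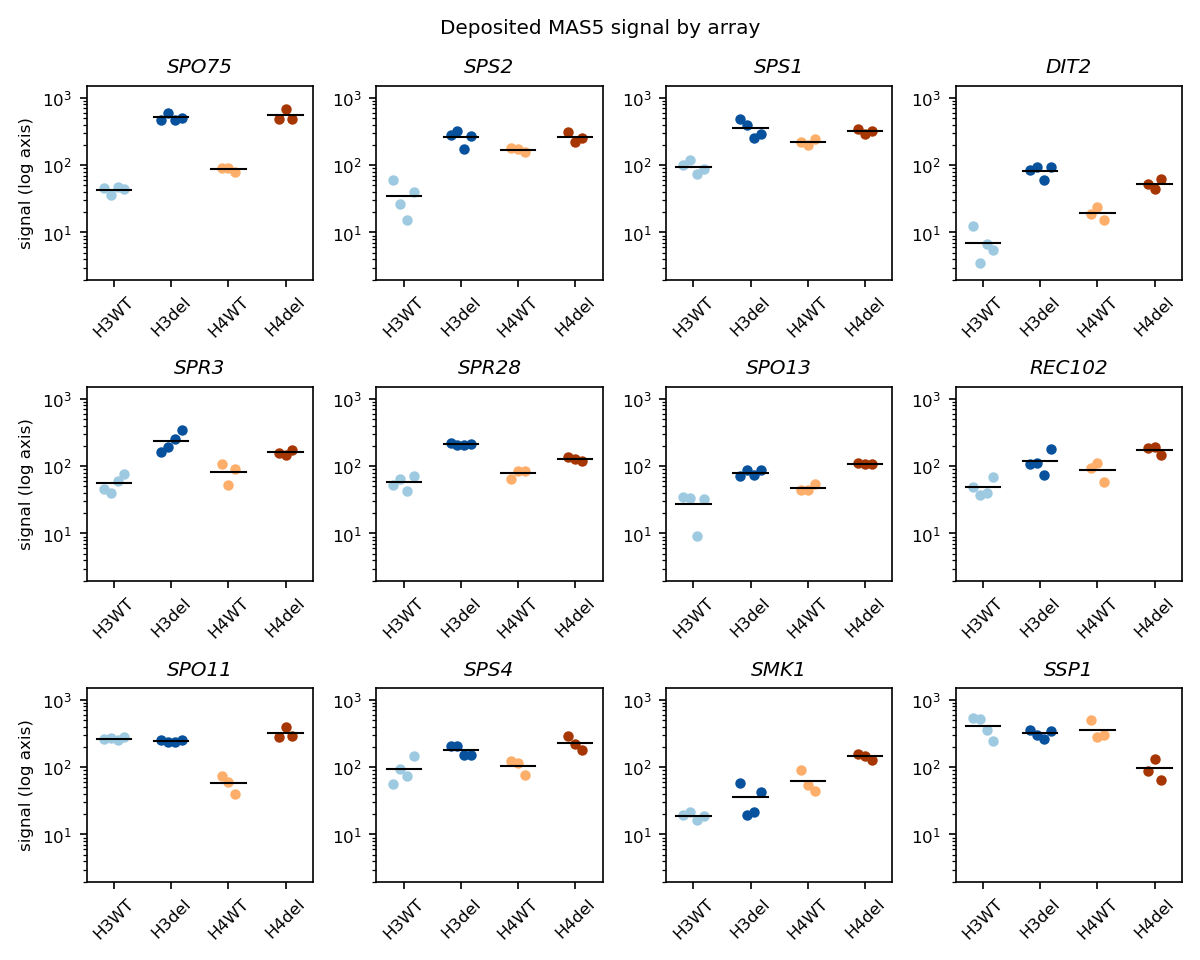
Each panel gives the MAS5 signal of 1 gene on a log axis, with a point per array (4 for H3WT and H3del, 3 for H4WT and H4del) and a line at the group mean. SPS2 differs between the wild types (means of 35.4 and 170) and is at 261 and 263 in H3del and H4del, and SPO11 is low only in H4WT (mean 57.4).

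The effects of both tails were compared gene by gene. Of the 17 members that rose in H3del and the 7 that rose in H4del, 5 were shared, namely SPO13, REC102, SPS4, SPO75 and DIT2, which is 29.4% of the first and 71.4% of the second. Over all probe sets 1.93% rose in both. The H3del value was the higher of the pair in 20 of the 25 middle-late and 11 of the 21 early genes. The median difference was 0.34 over the middle-late and 0.11 over the early genes, against 0.02 over all probe sets. The difference itself passed in 3 members, with SPS2 at 1.89 ± 0.39 (adjusted p = 0.0199) and DIT2 at 1.11 ± 0.28 (adjusted p = 0.0487) larger in H3del and SPO11 at -2.30 ± 0.28 (adjusted p = 0.000605) larger in H4del. Over all probe sets 1.71% passed with a difference above 0 and 1.23% with one below 0. The DIT2 difference was lost with day as a block (1.00 ± 0.31, adjusted p = 0.0578), and it passed in 9 of 21 alternatives. With the replicate number as a block 8 members were higher and 2 lower, of 46, with SPS1, SPR28, SPO19, SPO20, CRR1 and SSP1 added above 0 and the brightest CDA2 probe set below 0 (adjusted p between 0.0154 and 0.0478), while 6.36% and 4.59% of all probe sets were. The CDA2 probe set of the standard kind had a difference of the opposite sign in the main fit (1.57 ± 0.32, adjusted p = 0.0199). Without H4WT replicate 1 or H4del replicate 2 only SPO11 remained, and without H3del replicate 3 there were 5, with no share of all probe sets given. With day as a block SPR3 also passed (1.16 ± 0.26, adjusted p = 0.0164), in a fit where 6.92% of all probe sets passed above 0. For the genes called in 1 deletion alone and not named here a difference between the deletions was not shown.

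The matching wild types did not start from the same level. In H3WT against H4WT, which differ in plasmid marker and in the amino acid left out of the medium, SPO11 was higher in H3WT (1.95 ± 0.20, adjusted p = 0.00014) and 5 members were lower. These were SPS2 (-1.91 ± 0.28, adjusted p = 0.00159), SPS1 (-1.10 ± 0.23, adjusted p = 0.0173), SMK1 (-1.12 ± 0.26, adjusted p = 0.0326), SPO75 (-0.79 ± 0.19, adjusted p = 0.0398) and MEK1 (-0.85 ± 0.19, adjusted p = 0.0290). Of all probe sets 0.798% were higher and 2.05% lower. Without overlap H3WT lay above H4WT in 1 early and 1 middle-late gene and below in 4 and 7, against 5.97% and 6.81% of all probe sets. The mean signal of SPS2 was 35.4 ± 19.2 (SD, n = 4) in H3WT and 170 ± 12.4 (SD, n = 3) in H4WT, but 261 ± 60.2 (SD, n = 4) in H3del and 263 ± 45.5 (SD, n = 3) in H4del. SPS1 was at 95.4 and 221 in the wild types and 358 and 319 in the deletions, and SPO75 at 43.1 and 86.6 against 511 and 549. MEK1 was at 7.80 and 27.4 in H3WT and H4WT against 27.3 and 34.9 in H3del and H4del. As ratios of mean signals the wild types of these 4 genes lay further apart than the deletions, whereas SMK1, at 18.9 and 63.3 against 35.8 and 145, lay further apart in the deletions. This comparison has 1 array of each wild type on a shared day, and with the replicate number as a block only SPO11 and SPS2 passed, with 3 numbers and 2 residual degrees of freedom. With day as a block MEK1, SMK1 and SPO75 did not pass (adjusted p = 0.312, 0.140 and 0.278). DMC1, not called in the main fit (-1.15 ± 0.34, adjusted p = 0.0955), passed with that block (-1.94 ± 0.34, adjusted p = 0.0109). The number of members was 3 in place of 6 without H3WT replicate 1, 2 or 4 or H4WT replicate 2, and 2 without H4WT replicate 1. The share of all probe sets in these fits is not given.

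**Figure D4:**
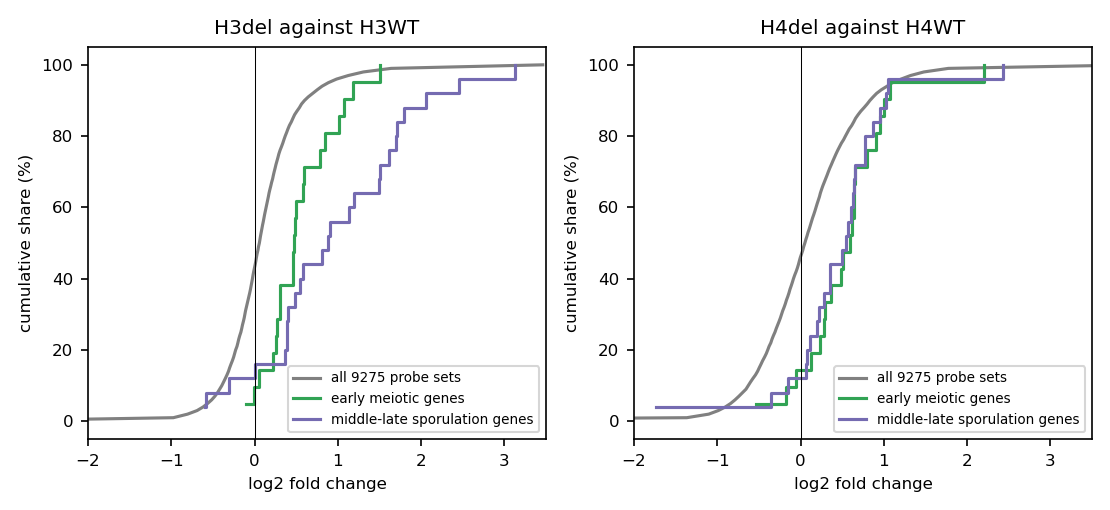
Curves give the cumulative share (%) of log2 fold changes for all probe sets (grey), the 21 early (green) and the 25 middle-late genes (purple). In H3del the purple curve lies furthest right (median 0.88, against 0.47 for early genes and 0.06 for all probe sets), and in H4del both gene classes lie close together (0.54 and 0.60, against 0.05).

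Other genes of the programme, from lists that are not part of the 46, were counted in the same way. Those lists too were chosen with earlier results of these data known. Over all probe sets 5.66% rose and 1.78% fell in H3del and 8.87% rose and 6.73% fell in H4del, and the counts of the lists that follow are to be read against these shares. Of 30 further middle-late genes 16 rose and none fell in H3del, and 10 rose and 1 fell in H4del, with median log2 fold changes of 0.92 and 0.56. The most significant were SPR2, of unknown role, from 5.2 to 23.3 in H3WT to 142.5 to 182.0 in H3del (2.54 ± 0.20, adjusted p = 2.99e-06) and 0.98 ± 0.24 in H4del (adjusted p = 0.0132), and SHC1, an activator of chitin synthesis in the spore (2.20 ± 0.18, adjusted p = 2.99e-06, and 1.19 ± 0.21, adjusted p = 0.00205). SPO74 of the meiotic spindle pole plaque rose by 2.00 ± 0.20 in H3del and 0.76 ± 0.23 in H4del (adjusted p = 1.75e-05 and 0.0389). SGA1, the sporulation glucoamylase that breaks down glycogen, rose by 1.88 ± 0.21 and 1.12 ± 0.24 (adjusted p = 4.17e-05 and 0.0067). SPS19, a peroxisomal enzyme of fatty acid oxidation, rose by 1.52 ± 0.31 and 1.56 ± 0.36 (adjusted p = 0.00598 and 0.0100). LDS1, a lipid droplet protein of the spore, rose by 1.04 ± 0.19 and 1.00 ± 0.22 (adjusted p = 0.0027 and 0.00853). The gene that fell in H4del was RRT8 (-0.79 ± 0.23, adjusted p = 0.0323), named after its value was seen.

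Of 14 further early genes with a probe set 4 rose in each deletion and none fell, with medians of 0.33 in H3del and 0.32 in H4del. SLZ1, which acts with the RNA methyltransferase Ime4, had signals of 12.7, 6.7, 3.8 and 4.4 in H3WT and 126.1, 157.5, 135.8 and 79.2 in H3del (2.55 ± 0.22, adjusted p = 6.28e-06). It had 68.1, 33.9 and 44.7 in H4WT and 201.2, 185.9 and 216.0 in H4del (1.76 ± 0.26, adjusted p = 0.000655). Every deletion array lay above every wild-type array of its pair. SAE3, the partner of Mei5 in loading Dmc1, rose by 1.11 ± 0.28 and 2.17 ± 0.33 (adjusted p = 0.0249 and 0.000758), and ECM11, of the synaptonemal complex, rose by 1.40 ± 0.21 and 1.36 ± 0.24 (adjusted p = 0.000603 and 0.00238). The RNA-binding protein gene RIM4 rose in H3del (1.34 ± 0.34, adjusted p = 0.0251) and had 1.19 ± 0.40 in H4del (adjusted p = 0.0555), whereas GMC2, another gene of the synaptonemal complex, rose in H4del (1.13 ± 0.24, adjusted p = 0.00631) and had 0.28 ± 0.20 in H3del (adjusted p = 0.537).

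None of the 13 genes for repressors of the programme changed in H3del at the threshold in limma, and 3 had an unadjusted p under 0.05. In H4del 4 fell. RME1, the haploid repressor of IME1, had signals of 2734.5, 2646.4 and 3041.8 in H4WT and 68.9, 68.6 and 169.9 in H4del (-4.67 ± 0.29, adjusted p = 2.22e-07), while IME1 gave no call. RME1 in H3del had -0.62 ± 0.25 (adjusted p = 0.175). The deacetylase RPD3 and its partners SAP30 and UME1 fell in H4del as well, at -0.88 ± 0.21 (adjusted p = 0.0127), -1.24 ± 0.23 (adjusted p = 0.0028) and -0.90 ± 0.29 (adjusted p = 0.0473). RPD3 had 1924.9, 1720.5 and 1472.4 in H4WT against 911.4, 961.4 and 869.7 in H4del, and in H3del 0.12 ± 0.18 (adjusted p = 0.799). UME6, SIN3 and SUM1 passed in neither deletion, with H4del values of 0.61 ± 0.22, 0.12 ± 0.41 and 0.18 ± 0.20 and H3del values of 0.27 ± 0.19, 0.51 ± 0.35 and -0.13 ± 0.17. Of 12 measured upstream signals and kinases IME4, the RNA methyltransferase needed for meiosis, rose in both deletions (0.82 ± 0.20 and 1.35 ± 0.23, adjusted p = 0.0204 and 0.00202). The Mediator kinase SSN3 fell in both (-0.90 ± 0.20 and -0.85 ± 0.23, adjusted p = 0.00969 and 0.0222).

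Markers of haploid cell identity fell more in H4del than in H3del, with median log2 fold changes of -3.11 and -0.62 over the haploid-specific genes. All 9 haploid-specific genes, RME1 among them, fell in H4del and 2 of 9, FAR1 (-2.03 ± 0.37) and HO (-2.22 ± 0.39), fell in H3del (adjusted p = 0.00261 and 0.00209). Their summed signal was 1816.0 to 2089.7 in H4del against 11531.2 to 20234.9 in H4WT, and 7956.4 to 10916.7 in H3del against 13380.4 to 19423.4 in H3WT, so the groups overlapped in neither pair. FUS3 and STE18, of the pheromone response, fell in H4del (-3.98 ± 0.26 and -3.11 ± 0.23, adjusted p = 3.83e-07 and 9.66e-07). HMRA1, the a1 gene of the silent a cassette, has the same sequence as a1 at an expressed a mating-type locus, and the array cannot tell them apart. It was at 861.9, 935.1 and 475.6 in H4del and at 6.1 to 52.8 in H4WT (4.06 ± 0.38, adjusted p = 1.54e-05), but at 20.7 to 46.4 in H3del against 7.6 to 26.7 in H3WT (0.48 ± 0.33, adjusted p = 0.503). The transcripts COX1 and OLI1 of the mitochondrial genome, named after their values were seen, were at 4.1 to 4.8 and 1.1 to 4.0 in H4del and at least 1181.2 and 1173.7 in H4WT, and neither passed in H3del (adjusted p = 0.730 and 0.953). The part of mating-type identity and of mitochondrial transcripts in the meiotic and sporulation values was not tested.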

How the data were processed

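Total RNA was measured on 14 Affymetrix YG_S98 arrays. The deposited values are signal intensity per probe set, made by the authors with MAS5 per the submitters' processing notes (version: not given in the sources used here). Trimmed by 2%, array means were between 1500.83 and 1501.18, so arrays were not rescaled. Of 9335 probe sets 60 controls were left out. Gene names came from GEO's platform annotation, in which 6504 of the remaining 9275 probe sets have 1 gene, 328 several and 2443 none. Locus tags and neighbours came from RefSeq's R64 gene table. The authors' run information files gave the hybridization day, a text field of unit other, per the file headers.

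An offset of 16.9, which is the 10th percentile of the signals, preceded log2, no brightness filter was used, and limma 3.58.1 (lmFit, eBayes with a trend) was fitted in R 4.3.3 with a coefficient for each group, leaving 10 degrees of freedom. P-values were adjusted by Benjamini-Hochberg over all 9275 probe sets, and 0.05 was the threshold. The SE given with a log2 fold change is that of limma. The fits were tested on simulated data. Tables and plots were made with python 3.11.15, pandas 2.3.3, numpy 2.4.6, scipy 1.17.1 and matplotlib 3.10.9. The number of arrays limits the precision. MAS5 detection calls were not used here, so no signal is called absent.

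The members and lists were chosen with earlier results of these data known. Named are all members past the threshold in a tail deletion or in the difference, IME1, IME2, NDT80, SMK1 and SPS1, and of other lists up to 4 genes with the smallest adjusted p in each deletion, with UME6, SIN3, RPD3, SUM1, RME1 and HMRA1. Other members are given by groups, and their single values were not chosen by that rule. HED1 had no probe set of its own. Same-number arrays deviated together from their group means (correlations of 0.205 to 0.614 in the H3 pair and 0.156 to 0.415 in the H4 pair), and a fit with the number as a block was run too, with 5 degrees of freedom left. Same-number arrays of H3WT and H4WT had correlations of 0.2 to 0.454. Pairs of unlike number were not compared, so these values do not show that the number pairs a deletion array with a wild-type array. Of the 7 pairs of a deletion with its wild type 6 also share a hybridization day. Alternatives changed the offset, scaling, brightness filter, probe set rule, variance model, blocks, groups and arrays in the fit. No sequence was used here.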

Additional observations from a re-analysis of the deposited data

Results flagged for a closer look

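The effect of the tail deletion differed between H3 and H4 in limma's test of the difference for 11 named genes, given here as the H3del minus the H4del log2 fold change. Among the members these were SPO11 (-2.30), SPS2 (1.89) and DIT2 (1.11). The DIT2 difference passed in 9 of 21 alternatives and not with day as a block (adjusted p = 0.0578). Among further sporulation genes they were SPO74 (1.24) and SPR2 (1.57). Among repressors they were RME1 (4.04) and SAP30 (1.50). The haploid-specific genes FAR1 (2.85), FUS3 (3.26) and STE18 (2.77) and the a1 gene HMRA1 (-3.58) also differed. For SPS2, SPR2 and SPO11 the wild types differed as well, at -1.91, -1.90 and 1.95 in H3WT against H4WT, and the differences of effects include these starting levels.

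Of 96 groups of 4 arrays examined for named genes, 3 held 1 array far from the others by Dixon's test, where chance flags about 1 in 20. SPO13 was at 9.1 on H3WT replicate 3 and at 32.9 to 34.6 on the other H3WT arrays. Without that array the change of SPO13 in H3del was 0.94 (adjusted p = 0.00372). SPR2 was at 182.0 on H3del replicate 2 and at 142.5 to 145.5 on the others. STE18 was at 466.0 on H3del replicate 4 and at 523.6 to 533.9 on the others.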

How the results depend on the processing

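Numbers below are members past the threshold. With only probe sets above the 30th percentile of brightness fewer members were tested. In H3del 1 of 7 early and 6 of 16 middle-late genes passed, in place of 5 of 21 and 12 of 25. In H4del 1 of 7 and 3 of 16 passed, in place of 3 of 21 and 5 of 25. Of all probe sets in that fit 5.21% rose and 2.46% fell in H3del, and 7.79% rose and 9.67% fell in H4del. Without day 1, chosen after seeing the data as were the other days, H3del kept 0 and 6, with no share of all probe sets given beside them. The 5 early genes called in the main fit then had log2 fold changes of 0.59 to 1.45, against 0.85 to 1.51 in the main fit. In H4del early calls were 1 with an offset of 1, with quantile normalization, without day 2 and without day 3, and 5 with the replicate block. The share of all probe sets that rose in H4del was 7.59% with an offset of 1 and 6.7% with quantile normalization. It was 4.82% with only the 2 groups in the fit, against 8.87% in the main fit. Middle-late calls in H4del were 2 with quantile normalization, without day 2 and without day 4, 3 with only the 2 groups in the fit and without day 3, 9 with day as a block and 8 with the replicate block, where 11.7% and 14.4% of all probe sets rose and 11.5% and 12.9% fell. The difference between deletions had 5 calls without a variance trend, 8 with day as a block and 10 with the replicate block, in place of 3, and over all probe sets those above 0 went from 1.71% to 6.92% and 6.36%. The wild types had 3 calls with quantile normalization and 2 with the replicate block or only the 2 groups in the fit, in place of 6. Of all probe sets 0.668% were then higher and 1.77% lower with quantile normalization. With the replicate block these shares were 0.097% and 0.604%, and with only the 2 groups 0.259% and 1.07%. Leaving out 1 array gave 3 to 6 early and 10 to 14 middle-late calls in H3del, 1 to 3 and 3 to 5 in H4del, 1 to 5 for the difference and 2 to 5 for the wild types. No share of all probe sets is given beside the counts from fits without 1 array or 1 day. Such counts therefore do not show whether calls were lost more among the members than among all probe sets. Causes were not tested, beyond the fewer members or arrays named. Quantile normalization lowered the H3del medians to 0.25 (early) and 0.67 (middle-late) and those of H4del to 0.26 and 0.30. NDT80 in H4del turned to 0.08 without day 2. Of 686 alternative values for 36 named member results 592 kept direction and side of the threshold, 93 lost the call and 1 reversed. The 36 include results that had no call to lose, such as those of IME1, IME2 and NDT80, so the total does not measure how stable the calls were. Among results that passed, the call held in 5 of 17 alternatives for REC102 in H4del and in all alternatives for SPO75 in both deletions. The replicate block changed no other call of members than those given. The 23 dim members limit what the signals can show.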
